A study of Bos taurus with 32 samples.

Results

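Liver RNA of dairy cows around calving was examined for 9 enzymes of cholesterol synthesis, ACAT2, HMGCS1, FDFT1, SQLE, LSS, CYP51A1, TM7SF2, NSDHL and EBP, given here in the order of the pathway. They were read from all 14 probe sets annotated to them, out of 24016 probe sets and 9155 named genes on the array. The 9 were chosen by their log2 differences between days in these same arrays. Their differences over time are therefore described without a test, and tests are given for the diets and for other enzymes of the pathway. HMGCS1 and FDFT1 had several probe sets, as did LSS, and the value of a gene is that of its brightest probe set on average.

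Animal cells build cholesterol from acetyl-CoA. The early enzymes make mevalonate and turn it into isoprenoid units, the middle enzymes join these into squalene and close it into the first sterol, and the late enzymes trim and rearrange that sterol into cholesterol. When membranes of the endoplasmic reticulum run low in sterol, the transcription factor SREBP-2, encoded by SREBF2, is released from its anchor by cleavage and switches on most genes of the pathway together. In liver the product enters bile acids and lipoproteins, and after calving a dairy cow sends lipid to milk while fatty acids from body fat reach the liver.

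The samples were biopsies from Ayrshire cows that were given a high-energy diet (HIGH) or a controlled-energy diet (CON) over a stretch of 6 weeks leading up to their expected calving. Liver was taken at -8 d, counted from the predicted day of calving, and at 1 d and 9 d, counted from the day the cow calved. There were 5 HIGH and 5 CON arrays at -8 d, 6 HIGH and 4 CON arrays at 1 d, and 6 arrays of each diet at 9 d, from 6 cows per diet. Each array is another biopsy, the cow is given in the labels, and 8 cows (5 HIGH and 3 CON) had arrays on all 3 days. The 10 hepatocyte marker genes averaged 13.74, 13.71 and 13.67 at -8, 1 and 9 d on an array whose values run from 2.35 to 15.0. Albumin (ALB) lay between 14.85 and 15.0 in every biopsy, at the top of the scale, where differences are compressed. Lower on the scale, the markers FGB and TAT ran between 10.58 and 12.75 and between 9.61 and 11.14. Values are log2 values after RMA (robust multi-array average), so a difference of 1 is a doubling, each level is relative to the bulk of the array, and levels of different genes cannot be ranked. In a biopsy, fewer cells of a type and less RNA per cell cannot be told apart.

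At 9 d all 9 enzymes had their highest group means, in both diets. They parted at 1 d, the day after calving. ACAT2 at the entry of the pathway and LSS, TM7SF2, NSDHL and EBP in its sterol part had their lowest group means at 1 d in both diets. HMGCS1, FDFT1, SQLE and CYP51A1 had their lowest group means at -8 d and stood between at 1 d. The median over the 9 enzymes of the log2 difference, averaged over the diets, was -0.30 for 1 d against -8 d, 0.36 for 9 d against -8 d and 0.64 for 9 d against 1 d. The medians over all genes were 0.00, -0.01 and -0.01.

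**Figure D1:**
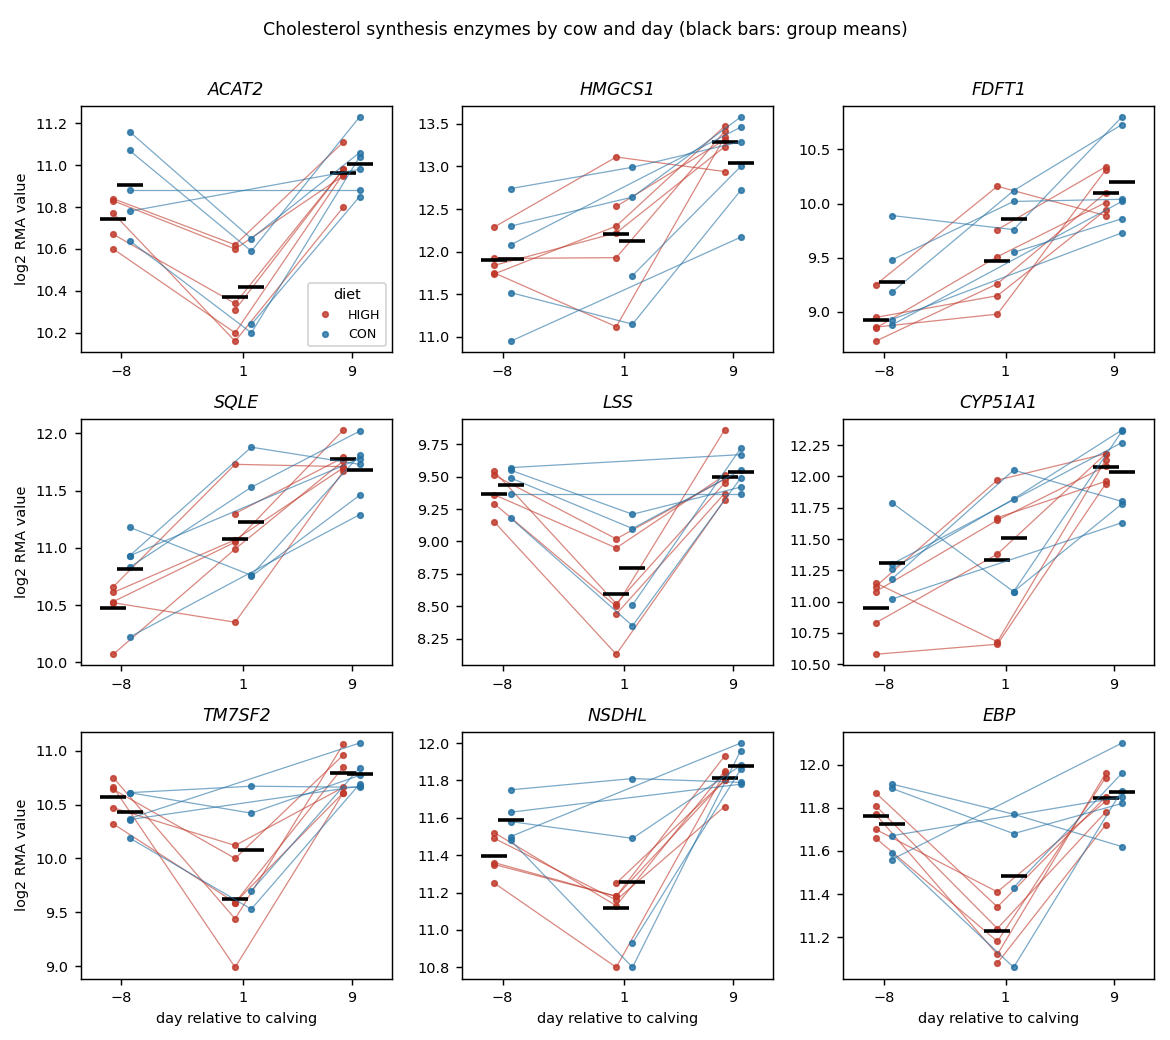
Log2 RMA value (vertical axis) of each of the 9 enzymes against the day relative to calving (horizontal axis; -8 d is relative to predicted calving). Points are arrays, HIGH in red and left of CON in blue, thin lines join arrays of 1 cow, and black bars are group means; ACAT2, LSS, TM7SF2, NSDHL and EBP dip at 1 d, while HMGCS1, FDFT1, SQLE and CYP51A1 have their lowest means at -8 d.

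ACAT2 is the cytosolic thiolase that joins acetyl-CoA units in the opening step. It is not the sterol esterifying enzyme SOAT2, for which the same short name is also in use. At -8 d ACAT2 ran between 10.60 and 10.84 in HIGH livers and between 10.64 and 11.16 in CON livers. At 1 d it ran between 10.16 and 10.62 in HIGH livers and between 10.20 and 10.65 in CON livers. At 9 d it ran between 10.80 and 11.11 in HIGH livers and between 10.85 and 11.23 in CON livers, so that every 9 d array lay above every 1 d array. The difference of 9 d against 1 d was 0.59 (SE 0.06), or 1.51-fold, and it was positive in all 10 cows that had both days. In all 8 cows with both earlier days ACAT2 was lower at 1 d than at -8 d, by between 0.22 and 0.61 on the log2 scale, against a fitted difference of -0.43 (SE 0.07).

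HMGCS1 is the cytosolic synthase that makes hydroxymethylglutaryl-CoA, the substrate of the rate-limiting reductase. At -8 d its values were 11.92, 11.84, 12.29, 11.75 and 11.74 in HIGH livers, against 11.52, 12.74, 12.30, 10.95 and 12.08 in CON livers. At 1 d the HIGH livers had a lowest value of 11.12, a median of 12.26 and a highest value of 13.11, against 11.15, 12.99, 12.64 and 11.72 in CON livers. At 9 d the HIGH livers had a lowest value of 12.94, a median of 13.325 and a highest value of 13.47, against 12.17, 13.145 and 13.58 in CON livers. Within HIGH every 9 d array lay above every -8 d array, while in CON the 2 days overlapped, with a 9 d array at 12.17 below -8 d arrays at 12.74 and 12.30. The SD of HMGCS1 in CON livers at 1 d, 0.84 (n = 4), was the largest of any of the 9 enzymes in any group. In HIGH livers its SD was 0.23 at -8 d and 0.19 at 9 d, and other enzymes scattered more on those days. The difference of 9 d against -8 d was 1.25 (SE 0.20), or 2.37-fold, and it was positive in all 10 cows with both days, between 0.55 and 1.73. At 1 d HMGCS1 differed from -8 d by 0.23 (SE 0.21), with 6 of 8 cows higher. That difference was 0.10 without the CON array of cow 477 at 1 d, 0.14 without that of HIGH cow 460 at 1 d or of CON cow 527 at -8 d, and 0.38 without that of CON cow 445 at 1 d.

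FDFT1, squalene synthase, commits the pathway to sterols by joining farnesyl units. FDFT1 averaged 8.93 ± 0.20 (SD, n = 5) in HIGH and 9.27 ± 0.42 (n = 5) in CON livers at -8 d, 9.47 ± 0.44 (n = 6) in HIGH and 9.86 ± 0.26 (n = 4) in CON livers at 1 d, and 10.10 ± 0.19 (n = 6) in HIGH and 10.20 ± 0.46 (n = 6) in CON livers at 9 d. The difference from -8 d was 0.55 (SE 0.14) at 1 d and 1.05 (SE 0.13) at 9 d. In 7 of 8 cows FDFT1 was above its -8 d level at 1 d. In all 10 cows it was above that level at 9 d, by between 0.56 and 1.55.

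SQLE, squalene epoxidase, adds the oxygen to squalene and is a second control point of the pathway. At -8 d its values were 10.53, 10.61, 10.66, 10.52 and 10.07 in HIGH livers, against 11.18, 10.93, 10.83, 10.22 and 10.93 in CON livers. At 1 d the HIGH livers had a lowest value of 10.35, a median of 11.06 and a highest value of 11.73, against 10.76, 11.88, 11.53 and 10.75 in CON livers. At 9 d the HIGH livers had a lowest value of 11.67, a median of 11.735 and a highest value of 12.03, against 11.29, 11.755 and 12.02 in CON livers. SQLE was the only one of the 9 enzymes whose 9 d arrays all lay above all -8 d arrays when both diets were pooled. That was so for 0.448% of all genes. The difference of 9 d against -8 d was 1.09 (SE 0.13), or 2.12-fold, and 0.50 (SE 0.14) of it was present at 1 d. On that day SQLE was above its -8 d level in 6 of 8 cows and below it in 2.

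LSS, lanosterol synthase, folds the epoxide into the first ringed sterol. At -8 d its values were 9.29, 9.54, 9.36, 9.15 and 9.51 in HIGH livers, against 9.18, 9.55, 9.49, 9.37 and 9.57 in CON livers. At 1 d the HIGH livers had a lowest value of 8.13, a median of 8.51 and a highest value of 9.02, against 8.35, 9.21, 9.10 and 8.51 in CON livers. At 9 d the HIGH livers had a lowest value of 9.32, a median of 9.465 and a highest value of 9.86, against 9.37, 9.52 and 9.72 in CON livers. All 1 d arrays lay below all 9 d arrays, as they did for ACAT2 and for 0.328% of all genes, and LSS was lowest at 1 d in each of the 8 cows with 3 days. The difference of 1 d against -8 d was -0.70 (SE 0.10), and that of 9 d against 1 d was 0.82 (SE 0.09), or 1.76-fold. By 9 d LSS was 0.12 (SE 0.09) above its -8 d level, with 6 of 10 cows higher, 3 lower and 1 equal, and it was 0.08 above it without cow 432. LSS acts on the product of SQLE, and in the means at 1 d LSS stood below its -8 d level where SQLE stood above its own.

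CYP51A1, the cytochrome P450 that removes a methyl group from lanosterol, had its lowest means at -8 d, like SQLE. It averaged 10.95 ± 0.24 (SD, n = 5) in HIGH and 11.31 ± 0.29 (n = 5) in CON livers at -8 d, and 12.08 ± 0.11 (n = 6) in HIGH and 12.04 ± 0.33 (n = 6) in CON livers at 9 d. The 1 d arrays spread between 10.66 and 11.97 in HIGH livers and between 11.08 and 12.05 in CON livers, reaching from the -8 d range into the 9 d range. For 1 d against -8 d the difference was 0.29, with 6 of 8 cows higher and 2 lower. Single cows changed by between -0.71 and 0.87, a wide scatter against that difference. It was 0.19 without the CON array of cow 477 at 1 d. The difference of 9 d against -8 d was 0.93 (SE 0.14) and was positive in all 10 cows.

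TM7SF2 encodes a sterol reductase that acts on the product of CYP51A1. At -8 d its values were 10.64, 10.66, 10.47, 10.32 and 10.75 in HIGH livers, against 10.19, 10.61, 10.61, 10.36 and 10.37 in CON livers. At 1 d the HIGH livers had a lowest value of 8.99, a median of 9.59 and a highest value of 10.12, against 9.53, 10.67, 10.42 and 9.70 in CON livers. At 9 d the HIGH livers lay between 10.61 and 11.06 and the CON livers between 10.66 and 11.07. In HIGH every 1 d array lay below every -8 d and every 9 d array. In CON the 1 d arrays split, with cow 477 (10.67) just above the -8 d range, cow 483 (10.42) inside it and cows 510 and 445 (9.70 and 9.53) below it. The difference of 9 d against 1 d was 1.17 (SE 0.15) in HIGH and 0.70 (SE 0.17) in CON.

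NSDHL, a dehydrogenase that takes part in stripping methyl groups from the sterol, averaged 11.39 ± 0.11 (SD, n = 5) in HIGH and 11.59 ± 0.11 (n = 5) in CON livers at -8 d. At 1 d it averaged 11.12 ± 0.16 (n = 6) in HIGH and 11.26 ± 0.47 (n = 4) in CON livers, and at 9 d 11.81 ± 0.09 (n = 6) in HIGH and 11.88 ± 0.09 (n = 6) in CON livers. Within each diet every 9 d array of NSDHL lay above every -8 d array, with a difference of 0.36 (SE 0.08) over both diets. EBP, the isomerase that moves a ring double bond, averaged 11.76 ± 0.08 (n = 5) in HIGH and 11.72 ± 0.17 (n = 5) in CON livers at -8 d. At 1 d EBP averaged 11.23 ± 0.13 (n = 6) in HIGH and 11.48 ± 0.32 (n = 4) in CON livers, and at 9 d 11.85 ± 0.09 (n = 6) in HIGH and 11.87 ± 0.16 (n = 6) in CON livers. EBP at 9 d was 0.12 (SE 0.07) above its -8 d level, with 6 of 10 cows higher and 4 lower (0.07 without cow 528), and the dip at 1 d (-0.38, SE 0.07, lower in 8 of 8 cows) made up its pattern.

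For each enzyme the means of neighbouring groups, ranked over the 6 diet-by-day groups, had overlapping ranges at every step. The days farther apart in that ranking were separated as follows. In HIGH livers, 5 of the 9 enzymes had every 9 d array above every -8 d array (HMGCS1, FDFT1, SQLE, CYP51A1 and NSDHL), which held for 3.53% of all genes. For 5 enzymes, NSDHL again among them, every 9 d array lay above every 1 d array (ACAT2, LSS, TM7SF2, NSDHL and EBP; 2.3% of genes), and LSS, TM7SF2 and EBP had every 1 d array below every -8 d array (3.57% of genes). In CON livers SQLE, TM7SF2 and NSDHL separated 9 d from -8 d (1.5% of genes), ACAT2 and LSS separated 9 d from 1 d (1.54% of genes), and none of the 9 had every 1 d array below every -8 d array (3.45% of genes). These shares describe how the 9 were picked and are not evidence about them.

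**Figure D2:**
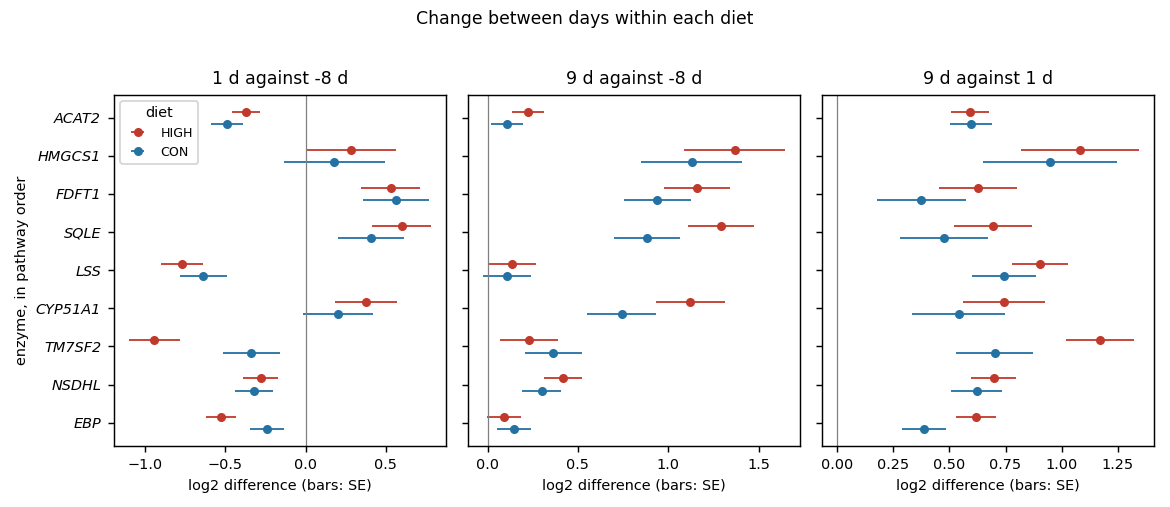
Log2 difference between days (horizontal axis, each panel with its own scale) for the 9 enzymes in pathway order (vertical axis), HIGH in red above CON in blue, with bars for the SE of the fit. In the panel of 1 d against -8 d, HMGCS1, FDFT1, SQLE and CYP51A1 lie right of 0 and the other enzymes left of it, in both diets, while in the other panels all points lie right of 0.

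Cow by cow, the dip at 1 d was steadier than the steps up. In the 8 cows with all 3 days, ACAT2 and LSS were lowest at 1 d in 8 and TM7SF2, NSDHL and EBP in 7. FDFT1 stepped up from day to day in 6 of these cows, HMGCS1 and CYP51A1 in 5 and SQLE in 4. SQLE was lowest at 1 d in 2 of them and highest in 2. HMGCS1 and CYP51A1 were each lowest at 1 d in 2 and highest in 1, and FDFT1 was lowest in 1 and highest in 1. At 9 d all 9 enzymes were above their 1 d values in 8 of 10 cows. The exceptions were HIGH cow 460, with 6 of 9 higher and a mean difference of 0.26, and CON cow 477, with 4 of 9 higher and a mean difference of 0.04. Both had stood high at 1 d. At that day cow 460 had the highest value of the HIGH livers in 7 of 9 enzymes and cow 477 that of the CON livers in 8 of 9. The other extreme was formed by HIGH cow 462, lowest in 5 of 9 at 1 d, and CON cow 445, lowest or tied for lowest in 7 of 9. Their mean differences of 9 d against 1 d were 1.26 and 1.12. The 1 d value is subtracted in these differences, so they are not separate from a cow's standing at 1 d. Cow 445 was the only cow with all 9 enzymes lower at 1 d than at -8 d, with a mean difference of -0.53, and cow 462 had 8 of 9 lower.

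In these enzymes the cows differed from each other more at 1 d than on the other days. In HIGH livers the SD between cows was larger at 1 d than at 9 d for 9 of 9 enzymes, with a median ratio of 2.10. Over all genes the SD was larger at 1 d for 68.8%, with a median ratio of 1.27. Against -8 d it was again larger at 1 d for 9 of 9 enzymes, with a median ratio of 2.08, against 68.6% of all genes and a median ratio of 1.30. In CON livers 8 of 9 enzymes had a larger SD at 1 d than at 9 d, FDFT1 being the exception, with a median ratio of 2.00, against 56.3% and 1.1 over all genes. Against -8 d the count in CON livers was also 8 of 9, with a median ratio of 1.74, against 61.3% of all genes and a median ratio of 1.19. These SDs rest on 4 to 6 cows a group, and the enzymes of 1 biopsy are not independent. With the group means removed, the 36 pairs of enzymes correlated over the 32 arrays with r between 0.137 (FDFT1 with LSS) and 0.814 (HMGCS1 with SQLE), with a median of 0.586.

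**Figure D3:**
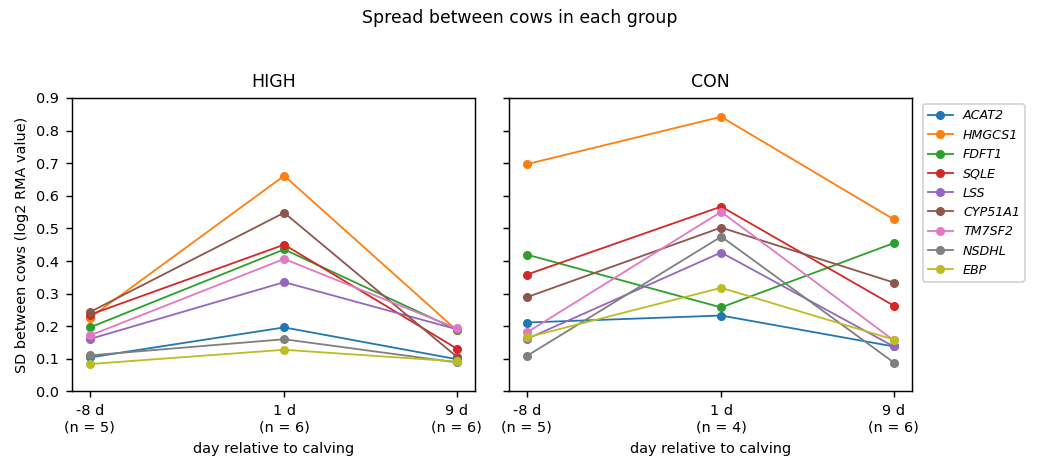
SD between cows (vertical axis, log2 RMA value) of each enzyme on each day relative to calving (horizontal axis), HIGH in the left panel and CON in the right, with the number of arrays below each day. Lines join the days of 1 enzyme; all 9 peak at 1 d in HIGH and 8 of 9 in CON, where FDFT1 has its smallest SD at 1 d.

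Genes with several probe sets gave the same order of days in the means over both diets where the probe set was bright. The second HMGCS1 probe set, with a mean of 8.56, differed by 1.80 (SE 0.25) for 9 d against -8 d, more than the 1.25 of the brighter one. The second FDFT1 probe set differed by 0.52 for 1 d against -8 d and by 1.16 for 9 d against -8 d. A further FDFT1 probe set stayed near 3.0 in every group, toward the bottom of the array, and differed by at most 0.04 between days. For LSS the second probe set differed by -0.60 for 1 d against -8 d and by 0.62 for 9 d against 1 d. A dimmer LSS probe set with a mean of 5.67 differed by -0.11 and 0.12. In CON livers the second LSS probe set averaged 6.54 at -8 d and 6.48 at 9 d, the reverse of the brightest one's order of those days. HMGCS1 reached 13.58 on a scale that ends at 15.0, where differences are compressed.

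The diets were compared on each day, which asks whether energy supply before calving altered the enzymes. HIGH and CON livers did not differ in a way that passed the test for any of the 9 enzymes at -8 d, 1 d or 9 d (limma with the cow as a random block, two-sided, adjusted p over all probe sets). The share of all probe sets that passed was 0.0% at -8 d, 0.00416% at 1 d and 0.0% at 9 d. At an unadjusted p under 0.05 the counts were 0 of 9 enzymes at -8 d, 2 at 1 d and 0 at 9 d, against 4.27%, 8.38% and 3.39% of all probe sets. These counts use the brightest probe set of each enzyme.

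The 2 enzymes were TM7SF2 and EBP, both with the lower mean in HIGH livers at 1 d. TM7SF2 averaged 9.62 ± 0.41 (SD, n = 6) in HIGH and 10.08 ± 0.55 (n = 4) in CON livers at 1 d, a difference of -0.46 (95% interval -0.83 to -0.09, limma adjusted p = 0.526). EBP differed by -0.26 (95% interval -0.47 to -0.04, limma adjusted p = 0.535). Neither difference passed the test. Without the CON array of cow 477 at 1 d, TM7SF2 differed by -0.27 and EBP by -0.16, and without that of cow 445 EBP differed by -0.39. With each array left out in turn, the TM7SF2 difference ran from -0.63 to -0.27. For TM7SF2 the CON cows 445 and 510 lay inside the range of the HIGH livers and cows 477 and 483 above it. For EBP cows 477 and 483 (11.77 and 11.68) again lay above the highest HIGH value of 11.41, with cow 510 at 11.43 next to it and cow 445 at 11.06 below the lowest HIGH value of 11.08. The second FDFT1 probe set differed by -0.61 at 1 d and the brighter one by -0.35 (95% interval -0.78 to 0.08). By the second one HIGH livers averaged 8.73 ± 0.43 (SD, n = 6) and CON livers 9.39 ± 0.43 (n = 4). They lay between 8.06 and 9.26 and between 8.81 and 9.78, so the ranges overlapped. This difference was larger than that of TM7SF2 and did not pass the test either. It lies outside the count of 2 enzymes, which uses the brightest probe sets.

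At 1 d the fitted difference was below 0 for 8 of the 9 enzymes, but for 4 of 9 without the CON array of cow 477. HMGCS1 had a difference of 0.11 (95% interval -0.53 to 0.76) by its brighter probe set and of -0.35 (95% interval -1.17 to 0.47) by the second one. The value of the brighter one ran from -0.17 to 0.37 with each array left out in turn. Among all genes the HIGH value was the higher one at 1 d for 50.4%. At -8 d the fitted difference was below 0 for 6 of 9, and its median over all genes was -0.005. The lowest values were -0.32 for FDFT1 (95% interval -0.73 to 0.10), -0.32 for SQLE (-0.73 to 0.10) and -0.34 for CYP51A1 (-0.77 to 0.10). Above 0 were TM7SF2 (0.14), EBP (0.03) and HMGCS1 (0.008), which ran from -0.20 to 0.18 with each array left out in turn. At 9 d the differences ran from -0.10 for FDFT1 to 0.25 for HMGCS1 (95% interval -0.33 to 0.83), whose second probe set differed by -0.10 (95% interval -0.84 to 0.64). The intervals are wide for HMGCS1 and narrow for ACAT2, which at -8 d differed by -0.16 (95% interval -0.36 to 0.04). In no enzyme and on no day did the arrays of the diets separate without overlap.

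**Figure D4:**
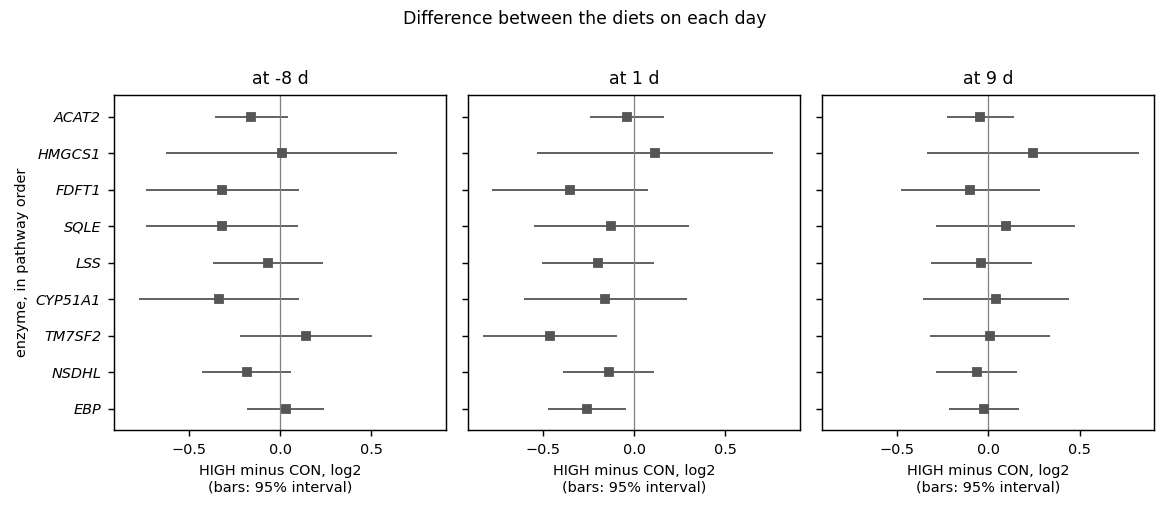
Difference HIGH minus CON (horizontal axis, log2) for the 9 enzymes in pathway order (vertical axis) on each of the 3 days, with bars for the 95% interval of the fit. The intervals cover 0 everywhere but for TM7SF2 (-0.46) and EBP (-0.26) at 1 d, whose adjusted p values of 0.526 and 0.535 did not pass.

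Whether the diets differed in their change over calving was tested directly. None of the 9 enzymes passed for 1 d against -8 d, 9 d against -8 d or 9 d against 1 d, and the share of probe sets that passed was 0.0% each time. TM7SF2 had the largest diet difference for 1 d against -8 d. Its difference between these days was -0.94 (SE 0.16) in HIGH and -0.34 (SE 0.18) in CON livers, and these differed by -0.60 (95% interval -1.09 to -0.12, limma adjusted p = 0.619). For EBP the difference between the days was -0.53 (SE 0.09) in HIGH and -0.24 (SE 0.10) in CON livers, with a diet difference of -0.29 (limma adjusted p = 0.694), or -0.19 without the CON array of cow 477 at 1 d. For 9 d against -8 d, SQLE was 1.29 in HIGH and 0.88 in CON livers (diet difference 0.41, 95% interval -0.11 to 0.94) and CYP51A1 1.12 in HIGH and 0.74 in CON livers (0.38, 95% interval -0.18 to 0.94). The unadjusted p was under 0.05 for TM7SF2 and EBP in the comparison of 1 d with -8 d and for TM7SF2 in that of 9 d with 1 d. The shares of all probe sets under that p were 7.17% for 1 d against -8 d, 3.29% for 9 d against -8 d and 6.78% for 9 d against 1 d.

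Enzymes of the same pathway outside the 9 were tested over time. Of 12 listed, 6 had a probe set here, MVK, PMVK, MVD, FDPS, MSMO1 and DHCR7. They were listed with earlier results of these arrays known. For 9 d against -8 d, 5 of 6 rose and none fell, against 7.79% of genes that rose and 5.08% that fell, and the median log2 difference was 0.44. For 9 d against 1 d, 5 of 6 rose and none fell, against 7.44% and 10.0% of genes, with a median of 0.60. For 1 d against -8 d none rose and 1 fell, against 16.5% and 12.3% of genes, with a median of -0.10.

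MVK and PMVK phosphorylate mevalonate in turn, and MVD then makes the first isoprenoid unit. MVK rose at 9 d by 0.47 against -8 d (SE 0.08, limma adjusted p = 0.000104) and by 0.59 against 1 d (SE 0.08, limma adjusted p = 3.09e-06), in 10 of 10 cows each time. Its probe set has a suffix that marks probes shared with other transcripts. MVD rose by 0.42 against -8 d (SE 0.07, limma adjusted p = 0.000256) and by 0.41 against 1 d (SE 0.07, limma adjusted p = 0.000207). PMVK, between them, differed by 0.08 in both comparisons (limma adjusted p = 0.602 and 0.583), and at 9 d its arrays ran between 8.60 and 9.15, against 8.52 to 9.11 at -8 d. PMVK was the only one of the 6 that did not pass for either comparison.

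FDPS makes the farnesyl units that FDFT1 joins. At -8 d FDPS averaged 10.08 ± 0.27 (SD, n = 10), at 1 d 9.95 ± 0.53 (n = 10) and at 9 d 10.78 ± 0.20 (n = 12). It rose at 9 d by 0.72 against -8 d (SE 0.13, limma adjusted p = 0.000276) in 10 of 10 cows. DHCR7, a reductase of the last step to cholesterol, had a mean of 10.19 ± 0.36 (n = 10) before calving, followed by 9.94 ± 0.52 (n = 10) at 1 d and 10.85 ± 0.20 (n = 12) at 9 d. DHCR7 rose by 0.68 against -8 d (SE 0.13, limma adjusted p = 0.00102) and by 0.89 against 1 d (SE 0.14, limma adjusted p = 2.51e-05). MSMO1, the methyl oxidase next to NSDHL in the pathway, showed the dip and the rise. It fell at 1 d by 0.30 against -8 d (SE 0.09, limma adjusted p = 0.0105), with 5 of 8 cows lower and 2 higher, and rose at 9 d by 0.31 against -8 d (SE 0.08, limma adjusted p = 0.0128) and by 0.61 against 1 d (SE 0.08, limma adjusted p = 4.07e-06). The fall of MSMO1 at 1 d did not pass without cow 445 (-0.19, limma adjusted p = 0.0538) or with only the cows that had all 3 days (-0.29, limma adjusted p = 0.0754), and with those cows its rise over -8 d was 0.33 with limma adjusted p = 0.0927. None of the 6 passed between the diets on any day, with DHCR7 at -8 d differing by -0.44 (95% interval -0.87 to -0.01, limma adjusted p = 1.00).

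**Figure D5:**
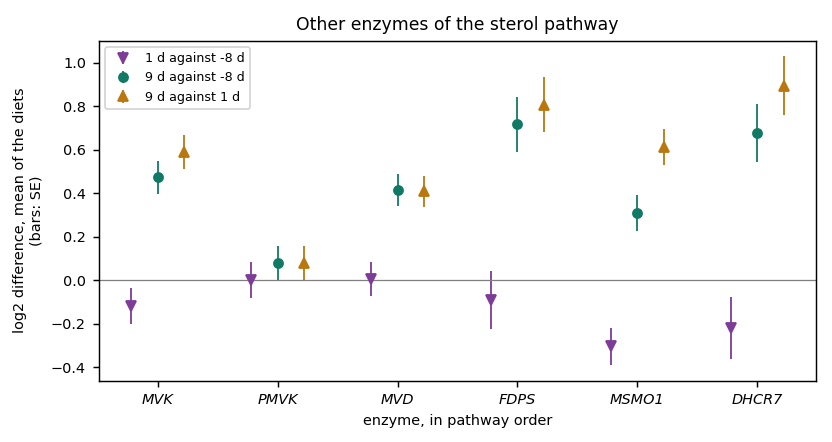
Log2 difference between days, mean of the diets (vertical axis), for 6 further enzymes of the pathway in pathway order (horizontal axis), with bars for the SE. Down triangles are 1 d against -8 d, circles 9 d against -8 d and up triangles 9 d against 1 d; apart from PMVK at 0.08, the enzymes rose at 9 d by 0.31 to 0.89.

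Genes that control the pathway were listed apart from its enzymes. Of 14 measured genes for SREBP control and sterol uptake (21 listed), 3 rose and 2 fell for 9 d against 1 d, against 7.44% and 10.0% of all genes, with a median of 0.01. SREBF2, which encodes the pathway's transcription factor, had a mean of 8.57 ± 0.13 (SD, n = 10) before calving, followed by 8.54 ± 0.30 (n = 10) at 1 d and 8.80 ± 0.12 (n = 12) at 9 d. It rose at 9 d by 0.25 against 1 d (SE 0.08, limma adjusted p = 0.0302). Against -8 d the difference of SREBF2 was 0.24 (SE 0.08, limma adjusted p = 0.0505), positive in 10 of 10 cows. INSIG1, which holds the SREBP complex in the endoplasmic reticulum and is itself an SREBP target, differed by 0.18 for 9 d against 1 d (SE 0.16, limma adjusted p = 0.508). TMEM97, a sterol-regulated membrane protein, rose by 0.35 in that comparison (SE 0.06, limma adjusted p = 0.000261). MBTPS1 and MBTPS2, the proteases that release SREBP, fell by 0.19 and by 0.31 on the log2 scale (limma adjusted p = 0.000533 and 0.000973), after a rise by 0.21 and 0.34 at 1 d against -8 d. NPC2, which hands cholesterol out of lysosomes, rose by 0.15 (SE 0.05, limma adjusted p = 0.0212) at 9 d against 1 d.

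Routes that feed or leave the sterol pathway were tested in the same fit. Of 9 genes for acetyl-CoA supply and fatty acid synthesis, 4 fell and 1 rose at 1 d against -8 d, against 12.3% and 16.5% of all genes. At 9 d against 1 d 6 rose and none fell, against 7.44% and 10.0% of all genes. Against -8 d, ACSS2 (an acetyl-CoA synthetase; -1.52, SE 0.21) fell at 1 d, as did SCD (-2.68) and FADS2 (-2.93), which put double bonds into fatty acids. At 9 d FADS2 (2.21), SCD (1.78), ACSS2 (1.39) and FASN (fatty acid synthase; 1.22, SE 0.17) rose against 1 d. Of these, SCD at 9 d still differed from -8 d by -0.89 (SE 0.25, limma adjusted p = 0.0228), and FASN was above it by 0.85 (SE 0.17, limma adjusted p = 0.00124), in 10 of 10 cows. Of 9 measured genes for the isoprenoid branches that leave the pathway before squalene, none rose or fell for 9 d against 1 d, where 7.44% of all genes rose and 10.0% fell (PDSS1 0.18, GGPS1 -0.09, PDSS2 -0.07 and RABGGTA -0.06 had the smallest p). For 9 d against -8 d 1 rose and 2 fell, against 7.79% and 5.08% of all genes. PDSS1, which makes the side chain of ubiquinone, rose by 0.32 (SE 0.09), and the prenyl transferase subunits RABGGTA (-0.25, SE 0.06) and FNTA (-0.15, SE 0.04) fell. ACAT1, the mitochondrial counterpart of ACAT2, had the same order of days with smaller steps. It fell by 0.13 at 1 d against -8 d and rose by 0.25 at 9 d against 1 d (SE 0.04, limma adjusted p = 4e-05). BDH1, which interconverts ketone bodies, differed by 0.07 (SE 0.06, limma adjusted p = 0.565) for 9 d against 1 d.

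Over the 32 arrays, the genes outside the 9 whose values ran most like the mean of the 9 (each centred on its own mean) were DHCR7 (Pearson r = 0.956, Spearman rho = 0.963), MVK (r = 0.909), MSMO1 (r = 0.898), MVD (r = 0.895) and FASN (r = 0.877). The arrays share cows and days, so these are descriptions of likeness. SREBF2 came to r = 0.708 and PMVK to r = 0.247.

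Other features of the biopsies moved with the days. All 4 measured neutrophil markers (S100A8, S100A9, S100A12 and LTF) rose at 1 d against -8 d, as did 16.5% of all genes, and their mean was 6.73, 8.39 and 7.39 at -8, 1 and 9 d, with single biopsies at 1 d between 7.65 and 9.84. All 11 measured proliferation genes rose at 9 d against -8 d, as did 7.79% of all genes, and their mean was 5.38, 5.38 and 6.73, with UBE2C (2.10), CDK1 (1.77), BIRC5 (1.78) and NUSAP1 (1.70) rising against 1 d. Of the 10 hepatocyte markers, 6 fell and 2 rose at 1 d against -8 d, against 12.3% and 16.5% of all genes. Of the 8 T and NK cell markers 5 fell in that comparison (12.3% of genes), and of the 5 erythroid markers 2 fell at 9 d against -8 d (5.08% of genes). The array's EF1A control, read as the log2 value at the 3' end minus that at the 5' end, had a mean of -0.684 ± 0.12 (SD, n = 10) before calving, followed by -1.07 ± 0.154 (n = 10) at 1 d and -0.81 ± 0.134 (n = 12) at 9 d. The actin control, read the same way, had means of 1.60, 1.61 and 1.78 on these days, with an SD of 0.698 at 9 d, where a single CON array (cow 528) stood at 3.87. The part of these shifts in the differences between days of the cholesterol enzymes was not tested.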

How the data were processed

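Liver RNA was measured on Affymetrix bovine arrays, 32 from 12 cows. The deposited table holds log2 values. The authors produced them in Affymetrix Expression Console 1.1 by RMA, per the submitters' processing notes. RMA forces arrays to a common distribution, and differences of bright and dim probe sets are compressed. The RMA settings and a genome build are not given in the sources used here. Array medians over the tested probe sets ran from 5.86 to 5.93. Precision is limited by how many arrays there are. From 24128 probe sets, 112 controls were dropped. Gene names came from the array annotation, updated through RefSeq gene identifiers, with 13292 probe sets carrying 1 symbol, 86 several and 10638 none here. No sequences or genome positions were used.

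limma 3.58.1 in R 4.3.3 fitted the 6 group means, treating the cow as a random block (within-cow correlation 0.138, 26 residual degrees of freedom), with empirical Bayes and a mean-variance trend. P was two-sided and adjusted by Benjamini-Hochberg over 24016 probe sets per contrast, with adjusted p under 0.05 as the threshold. The series text counts more cows than the labels of these arrays name. Replicates are separate cows, and arrays were paired by the cow number in the labels, since the titles' replicate numbers join different cows. The fit was tested on simulated data.

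The 9 enzymes and all gene lists were chosen with earlier results of these data known. Named were the 9 enzymes, the other pathway enzymes, up to 4 genes per list with the smallest p for 9 d against 1 d, and the 5 genes most correlated with the 9. SREBF2, INSIG1, FNTA, the marker genes at 1 d and single cows were named after their values were seen. Other genes of the pathway were not analysed here.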

Additional observations from a re-analysis of the deposited data

Results flagged for a closer look

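Of 84 groups of arrays examined for the 14 probe sets, 6 held an array that stood apart from the others of its group, and chance alone flags about 1 in 20 groups. SQLE was lowest in cow 529 of the HIGH livers at -8 d, at 10.07, and highest in cow 432 of the HIGH livers at 9 d, at 12.03. Cow 432 also had the highest LSS value of the HIGH livers at 9 d, at 9.86. NSDHL was lowest in cow 462 of the HIGH livers at 1 d, at 10.80. The second HMGCS1 probe set was highest in cow 460 of the HIGH livers at -8 d, at 8.32. The dimmer LSS probe set was highest in cow 445 of the CON livers at 9 d, at 5.95.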

How the results depend on the processing

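No enzyme of the 9 passed between the diets or for diet by time under any of the settings run (0 in each), including no replicate block, the replicate block of title numbers, only the 8 cows with all 3 days, arrays centred on their medians, a filter that left 12562 probe sets, no mean-variance trend, any probe set of a gene, and each array (0 to 0) or, chosen after seeing the data, each cow left out. With cow as a fixed block, diet on a single day cannot be estimated. Of the other enzymes, 5 passed for 9 d against 1 d under all settings, and 5 for 9 d against -8 d but for 4 with only the cows that had all 3 days. For 1 d against -8 d the count of 1 (MSMO1) was 0 with only those cows and 0 without cow 445, and 1 with each array left out; fewer samples enter both. Counts over all probe sets were 5531, 2266 and 3146 for 1 d against -8 d, 9 d against -8 d and 9 d against 1 d, against 4620, 1645 and 2496 with no replicate block, 5308, 2349 and 3284 with the replicate block of cows, 4615, 1559 and 2639 with the block of title numbers, which do not pair these arrays, and 3781, 1137 and 1886 with only the cows that had all 3 days. The mean over all LSS probe sets gave 0.52 for 9 d against 1 d, against 0.82. The signs of the enzymes' diet differences were less steady: at 1 d between 4 and 9 of 9 were below 0 with each array left out, against 8. With 4 to 6 cows a group the intervals between diets are wide, and values near the ends of the scale are compressed.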
